A study of Homo sapiens with 9 samples.

Results

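The transcripts described here are the annotated retained-intron isoforms that K562 cells expressed at a measurable level. They were chosen by 2 criteria, an annotated transcript type of retained_intron and a mean of at least 1 TPM, a level normalised for transcript length and library depth, over the 9 libraries, and 4098 of the 28375 retained-intron transcripts in the tables met both (14.4%). The tables list 203027 transcripts in all, and the 4098 members came from 2327 genes, of which 925 had more than 1 member and the richest had 16. Because the mean TPM chose the members, their levels are given as a description, and the tests concern differences between groups.

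A retained intron is a stretch that the spliceosome usually removes and that stays in the mature, polyadenylated RNA of some molecules. Such RNAs can be held in the nucleus, spliced later, or exported, where a stop codon read inside the intron ahead of a splice junction can make the RNA a substrate of nonsense-mediated decay (NMD). Genes for splicing factors, ribosomal proteins and other parts of the RNA machinery are known for this type of isoform.

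K562 is a human myelogenous leukaemia line with erythroid features. The cells were transfected with siRNA and harvested on day 4, in 3 groups of 3 libraries each: a non-targeting pool (SCR, the control), a pool against the RNA helicase DHX34 (DHX34-kd) and siRNA against the core NMD helicase UPF1 (UPF1-kd). The titles name the line K562, whereas other label fields spell it K652, and the treatment field reads WT for the SCR libraries although the protocol gives siRNA transfection, so the line and the non-targeting pool are as the study's methods give them. No other change is named for any group, and the knockdowns left part of the targeted RNA in place. The labels do not say whether libraries of a group were separate cultures, which the study's methods describe as biological replicates, so p-values measure the spread between these libraries only.

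The libraries held between 73478797 and 103625443 expected counts, the fractional read counts that salmon assigns to transcripts. DHX34 had 18.4, 19.4 and 18.2 TPM in SCR and 9.49, 9.4 and 11 TPM in DHX34-kd. UPF1 had 46.4, 51.4 and 49.9 TPM in SCR and 23.2, 23.0 and 22.9 TPM in UPF1-kd. Each targeted gene was therefore lowest, with no overlap, in the group named after it. All 10 erythroleukaemia markers examined had a mean of at least 1 TPM over the 9 libraries. Their summed level was 25574 to 27167 TPM in SCR, 23555 to 25653 TPM in DHX34-kd and 15533 to 16739 TPM in UPF1-kd. CD3E, CD8A, MS4A1, CD79A, COL3A1, DCN, CDH1 and KRT5, which mark lymphocytes, fibroblasts and epithelia, were under 1 TPM in every library.

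DHX34-kd replicate 3 stood apart. It was the highest library of its group for 2438 of 4085 members (59.7%), for 1103 of 1617 members that keep a whole intron (68.2%) and for 14 of 16 members of genes with reported detained introns (87.5%). In SCR the corresponding share of all members was between 22.2% and 43.5% for each library, lowest in replicate 3, and in UPF1-kd between 29.2% and 38.7%. Results for DHX34-kd are given below with and without that library.

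The members were short and mostly of low level. Their median length was 779 bases (quartiles 580 and 1293.5, range 156 to 19141), against 1929.5 bases for protein-coding transcripts with a mean of at least 1 TPM. The median of their mean levels was 2.24 TPM, 955 reached 5 TPM and 38 reached 100 TPM. Just inside the limit of 1 TPM stood transcripts of PSMD2 (1.0 TPM), RBFA (1.001 TPM), ENSG00000291024 (1.001 TPM), MFSD3 (1.001 TPM) and P4HB (1.002 TPM), and just outside it ATP5F1A (0.9999 TPM), ADAR (0.9997 TPM), RBCK1 (0.9996 TPM), FAH (0.9996 TPM) and ATL2 (0.999 TPM). Of the members, 3974 belonged to protein-coding genes, 108 to lncRNA genes and 16 to pseudogenes. In each of the 3 groups 3183 members had a mean of at least 1 TPM, while 31 reached it only in SCR, 49 only in DHX34-kd and 93 only in UPF1-kd. At least 1 library was at 0 for 419 members, and for 439 the highest SCR library was at least 4 times the lowest.

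Against the annotation, 1619 members (39.5%) had an exon that spans a whole intron of a coding transcript of the same gene, called a kept intron here. Another 2289 (55.9%) contained only part of an intron, for example by starting or ending inside it, and 138 had no coding transcript to compare with. The remaining 35 lay within coding exons and 17 beyond the coding transcripts. Much of a typical member was ordinary exon: a median of 27.8% of its bases, or 236 bases, lay outside every coding exon, and for 635 members that share was under 10%. Salmon divides reads among isoforms that share exons, so the level of these members rests on few distinguishing bases. For 1474 of the 1619 members (91.0%) the kept intron was spliced out in at least 50% of the coding TPM of the gene.

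The introns that members kept were short, GC-rich and had splice sites of low score. The 1451 distinct kept introns had a median length of 203 bases (quartiles 97 and 411) and a median GC content of 59.3%. Other introns of the same genes, 11896 in number, had medians of 547 bases and 53.8% GC, and the 111762 introns of all coding transcripts with a mean of at least 1 TPM had 1523 bases and 43.5% GC. Introns under 200 bases made up 49.4%, 27.5% and 12.7% of these 3 sets. Splice sites were scored by how often each base occurs at each position of the 9-base donor and 23-base acceptor windows, and ranked among all introns. The kept introns had a median donor percentile of 38.3 and a median acceptor percentile of 28.1, against 46.6 and 37.5 for other introns of the same genes. Most kept introns began with GT and ended with AG (1421), while 21 were GC-AG (1.45%, against 0.907% of all introns) and 6 were AT-AC (0.414%, against 0.117%). These are descriptions over introns, many of which share a gene.

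**Figure D1:**
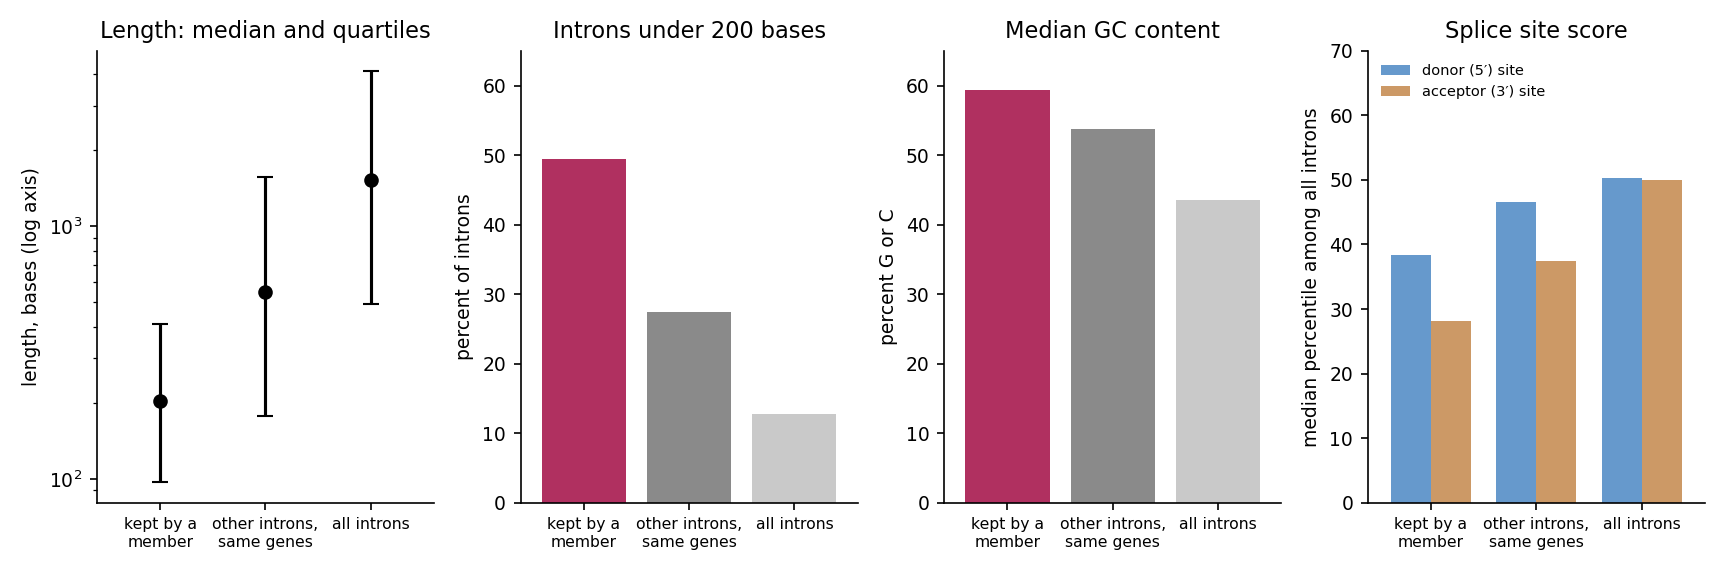
Length (bases, log axis, point at the median and bar from lower to upper quartile), percent of introns under 200 bases, median GC content (percent) and median splice-site score percentile (donor and acceptor bars) of the 1451 introns kept by members, of 11896 other introns of the same genes and of 111762 introns of all expressed coding transcripts. The kept introns had a median of 203 bases and 59.3% GC, with acceptor sites at a median percentile of 28.1.

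Most kept introns interrupt the reading frame of the coding transcript. Of the 1619 members, 1540 kept an intron inside the coding region, 60 one in the 5′ UTR and 19 one in the 3′ UTR. The frame was that of a coding transcript that removes the intron, with 1 kept intron considered per member. Whether the member itself holds the start codon and the upstream exons was not checked. Reading on in that frame met a stop codon inside the intron in 1267 of the 1540 (82.3%), at a median of 43 bases from its start. In 899 (58.4%) a splice junction of the member followed more than 50 nucleotides downstream of that stop. NMD is known to read this arrangement where the RNA is translated in that frame. The kept intron was the first of its transcript in 12.7% of members and the last in 8.34%, against 13.6% and 11.2% of all introns. More than 1 intron was kept by 594 members (36.7%), and the most kept by a single member was 13.

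The splice sites below belong to kept introns of members whose changes are described further on, and of the detained introns of DDX5 and OGT. They include short GC-rich introns (RPL13, DCXR, PTBP1, NOB1, APRT), a short AT-rich intron (EEF1A1) and long AT-rich introns (DDX5, OGT). Each line gives 30 bases across the donor or acceptor in GRCh38, 5′ to 3′ on the strand of the gene, with the first and last bases of the intron in capitals.
RPL13 intron 2 donor, chr16:89561054-89561083, plus strand: agatccgcagGTgagccctgcgctcggggc
RPL13 intron 2 acceptor, chr16:89561202-89561231, plus strand: ccgccgctgcgcttctctccaccAGacgta
DCXR intron 1 donor, chr17:82037611-82037640, minus strand: gcaggcaaagGTgggcggcggggaaaggtg
DCXR intron 1 acceptor, chr17:82037543-82037572, minus strand: ccttcactgagcccgctcccggcAGgtata
PTBP1 intron 4 donor, chr19:804199-804228, plus strand: gaaaaaccagGTacctgagccgcgtttctc
PTBP1 intron 4 acceptor, chr19:804267-804296, plus strand: ccagcgctcactgcctccccaacAGgcctt
NOB1 intron 1 donor, chr16:69754828-69754857, minus strand: ggctctgcagGTacggggagctccctccgg
NOB1 intron 1 acceptor, chr16:69754722-69754751, minus strand: ctgagctggggcgttctgtccgcAGgacat
APRT intron 1 donor, chr16:88811800-88811829, minus strand: tggtattcagGTgcacgcacaggccgccct
APRT intron 1 acceptor, chr16:88811652-88811681, minus strand: tcaccaggcctgtccttgggtccAGggaca
EEF1A1 intron 4 donor, chr6:73518912-73518941, minus strand: aagtgctaacGTaagtggctttcaagacca
EEF1A1 intron 4 acceptor, chr6:73518844-73518873, minus strand: acaaattggcatgcttgtgtttcAGatgcc
BAG6 intron 16 donor, chr6:31641756-31641785, minus strand: taacatccggGTaaatgaaggccaggggcc
BAG6 intron 16 acceptor, chr6:31641588-31641617, minus strand: taaacctgttctgtttcctccacAGatggc
DDX5 intron 11 donor, chr17:64501990-64502019, minus strand: agagggctagGTtagtacaaactcgcattc
DDX5 intron 11 acceptor, chr17:64500769-64500798, minus strand: tttgccacactgcaacaccttacAGatgtg
OGT intron 4 donor, chrX:71544626-71544655, plus strand: agaagccaagGTaggtgtttgatagaacac
OGT intron 4 acceptor, chrX:71547882-71547911, plus strand: tcttctttcattaacccctcctaAGgcatg

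The APRT intron was 163 bases long with 77.9% GC, and its donor and acceptor stood at percentiles 5.06 and 5.79. The RPL13 intron, also 163 bases and 75.5% GC, had a donor at percentile 83.9 and an acceptor at 23.8. By contrast the DDX5 intron was 1236 bases and 42.3% GC, with its donor at percentile 31.4 and its acceptor at 5.16. In OGT the intron was 3271 bases and 41.6% GC, with its donor at percentile 79.5 and its acceptor at 13.9. The printed introns thus ran from 83 to 3271 bases.

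Together the members held a small share of the transcriptome, and by TPM that share was higher in both knockdowns than in SCR. The members made up 3.79%, 3.91% and 3.79% of all TPM in the 3 SCR libraries, 3.93%, 3.93% and 4.15% in DHX34-kd and 4.26%, 4.25% and 4.18% in UPF1-kd. The means were 3.83% ± 0.0654 (SD, n = 3), 4.0% ± 0.125 and 4.23% ± 0.0456, and no 2 groups overlapped on this scale. The difference from SCR was 0.171 percentage points in DHX34-kd, which became 0.0984 without replicate 3, and 0.399 in UPF1-kd. As a share of expected counts, which gives long transcripts more weight, the members held 2.38%, 2.38% and 2.29% in SCR, 2.34%, 2.31% and 2.53% in DHX34-kd and 2.52%, 2.48% and 2.46% in UPF1-kd. By counts the differences were 0.0414 and 0.14 points, DHX34-kd overlapped with both other groups, and UPF1-kd stayed above SCR. In bulk libraries of this kind, a change in RNA per cell and a change in the mix of cells cannot be told apart.

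The rise in summed TPM was not shared by all members. Members of ribosomal protein genes held 1.35%, 1.36% and 1.36% of all TPM in SCR, 1.22%, 1.21% and 1.21% in DHX34-kd and 1.29%, 1.27% and 1.28% in UPF1-kd, so they were lower in both knockdowns. Members of all other genes held 2.44%, 2.55% and 2.43% in SCR, 2.71%, 2.72% and 2.94% in DHX34-kd and 2.97%, 2.99% and 2.9% in UPF1-kd. Members that keep a whole intron held 0.932%, 0.956% and 0.873% in SCR, 0.976%, 0.983% and 1.08% in DHX34-kd and 1.1%, 1.09% and 1.08% in UPF1-kd, without overlap between SCR and either knockdown. A large part of this class was RPL13 ENST00000565571, with means of 2308 TPM in SCR, 2083 TPM in DHX34-kd and 1953 TPM in UPF1-kd. The stretch it keeps is spliced out in only 0.00455% of the coding TPM of RPL13, so it is ordinary exon in nearly all of that gene's coding RNA. For members with part of an intron, SCR (2.77% to 2.86%) and DHX34-kd (2.85% to 2.95%) overlapped, and UPF1-kd was higher (2.98% to 3.05%). Over the same libraries transcripts annotated as NMD substrates went from a mean of 2.07% in SCR to 2.11% in DHX34-kd and 2.73% in UPF1-kd, and protein-coding transcripts from 81.6% to 80.0% and 78.8%.

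**Figure D2:**
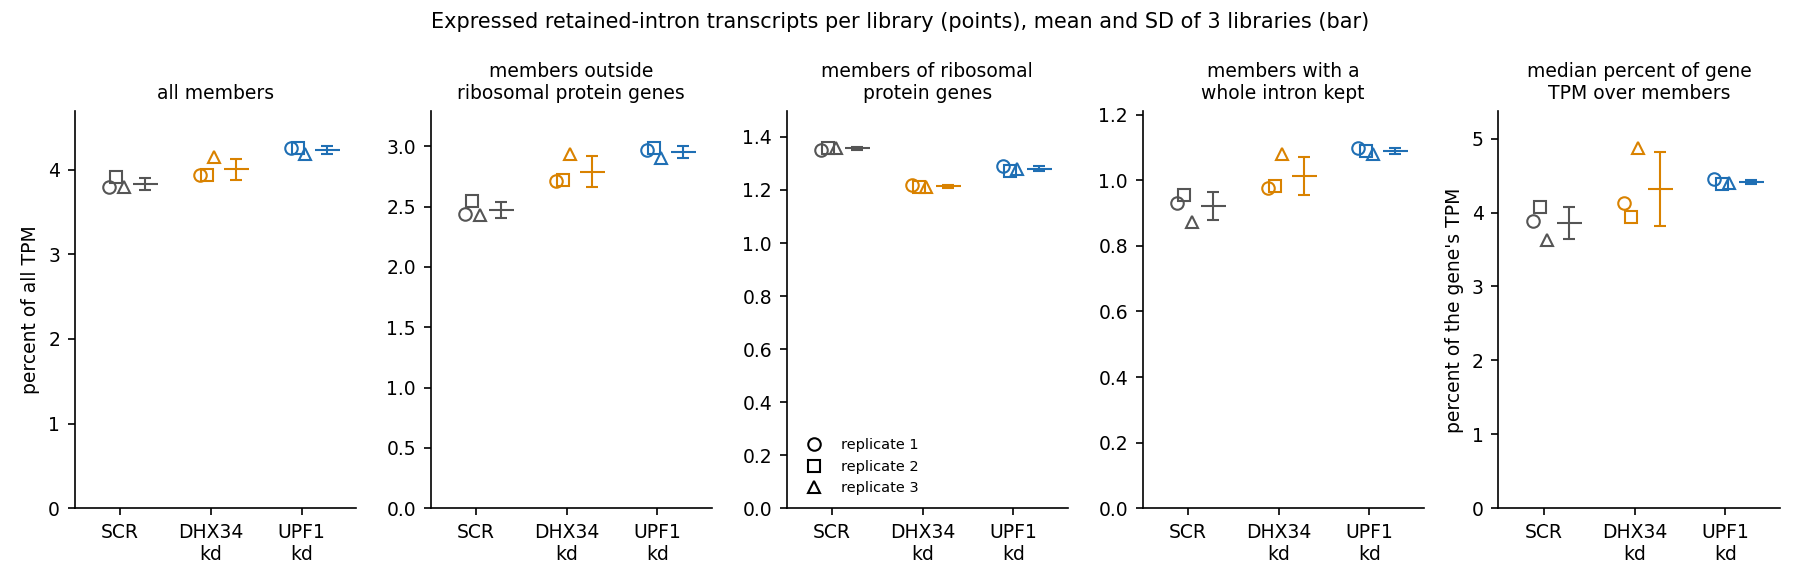
Percent of all TPM in all members, in members outside and of ribosomal protein genes and in members with a whole intron kept, and median percent of the gene's TPM over members, with 1 point per library and a bar at each group mean ± SD. UPF1-kd libraries lie above every SCR library except for members of ribosomal protein genes, where they lie below, and DHX34-kd replicate 3 lies above the other libraries of its group in all panels but that one.

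Within their genes most members were minor isoforms. The median member made up 4.47% of its gene's TPM, 1178 members (28.7%) reached 10%, 109 (2.66%) reached 50% and 1182 stayed under 2%. The median over members was 3.88%, 4.07% and 3.63% in the SCR libraries, 4.13%, 3.94% and 4.88% in DHX34-kd and 4.45%, 4.39% and 4.4% in UPF1-kd. UPF1-kd was thus above SCR in every library, whereas DHX34-kd overlapped with SCR. The mean share over members was 9.75% in SCR, 9.99% in DHX34-kd and 9.83% in UPF1-kd, and here neither knockdown was separated from SCR.

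The most abundant members were isoforms of ribosomal protein genes and OAZ1, and between 1.64% and 47.2% of their bases lay outside coding exons. RPL14 ENST00000479563, from a gene for a protein of the large ribosomal subunit, had 3153, 3185 and 3358 TPM in SCR, 2791, 2745 and 2758 TPM in DHX34-kd and 2931, 2882 and 2999 TPM in UPF1-kd. It made up 87.6% to 90.4% of its gene in every library, and 1.64% of its bases lay outside coding exons. Next came isoforms of RPL13 (ENST00000565571), RPL11, RPL4 (ENST00000561775), RPS28, RPS23, RPL32 and RPS27A, all ribosomal protein genes, and 2 isoforms of OAZ1, the antizyme that limits polyamine synthesis. OAZ1 ENST00000592727 held 53.2% to 55.0% and ENST00000592787 35.1% to 36.9% of that gene in every library. None of these 10 members was called in the share test described next. Ribosomal protein genes and EEF1A1 have near-identical processed copies in the genome, so their levels are uncertain.

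Differences were tested in 2 ways. The level of each transcript was tested on rounded expected counts with edgeR, called at an adjusted p of at most 0.005. The share was tested with limma on the log2 ratio of a transcript's TPM to the TPM of the rest of its gene, called at an adjusted p of at most 0.05, which leaves out changes that a whole gene makes. Of the 4098 members, 4000, 4003 and 4025 passed the count filter in the 3 comparisons, and 4068 passed the filter of the share test. A member can pass a filter through the group where it is high alone. Each test was repeated 6 times with 1 library left out, and a call said to hold in 3 of 6 was made again in 3 of those fits.

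In UPF1-kd against SCR, more members gained than lost share. The limma share test called 107 members up and 34 down, or 2.63% and 0.836% of those tested, where over all transcripts 2.07% were called up and 0.841% down. Without 1 library the test called between 43 and 99 members. The median log2 change in ratio was 0.13 over members and 0.041 over all transcripts tested, and it was 0.079 over members without SCR replicate 3. Groups did not overlap for 29.4% of members and 27.4% of all transcripts. The calls came from 122 genes, and for 11 of the 107 rises and 5 of the 34 falls a group was at 0 in all 3 libraries. Among the 3159 tested members with at least 1 TPM in every group, 70 rose (2.22%) and 26 fell (0.823%). Of the transcripts annotated as NMD substrates, 257 of 2688 were called up (9.56%) and 6 down, with a median of 0.372. The members' share of rises thus stood close to the background and under that of the annotated NMD substrates.

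The level test gave fewer calls. In UPF1-kd against SCR edgeR called 34 members up and 27 down, where 2.54% of all transcripts were called, 0.949% up and 1.59% down. Without 1 library it called between 1 and 19 members. The split of these calls was different when both the scaling and the test were changed: limma on log2(TPM + 0.5) called 100 members up and 14 down. The percent of all transcripts that this limma fit called is not given, so the split has no background beside it. The median change of all transcripts was 0.06 in the edgeR fit and 0.18 in the limma fit on the log2 scale, and of the members that edgeR called 0 had the opposite sign in the limma fit. The factor that scales a whole library is the same in both parts of the share ratio.

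The calls were also counted by what a member keeps. In the UPF1-kd share test 61 of 1615 whole-intron members rose (3.78%) and 3 fell, with a median log2 change of 0.21, against 44 rises and 12 falls of 2281 members with part of an intron and a median of 0.09. Of the whole-intron members whose stop codon in the intron was followed by a junction, 36 of 899 rose and 2 fell. Where the stop had no such junction 12 of 365 rose and none fell, where there was no stop 9 of 273 rose and 1 fell, and for introns in UTRs 4 of 78 rose. Whether these rates differ was not tested. The 138 members without a coding transcript went the other way in share, with 1 rise and 17 falls of 120 tested and a median of -0.25. Most of these falls were isoforms of the snoRNA hosts GAS5, SNHG1 and SNHG12, described below, so they do not stand for separate genes. In the level test the same class had a median log2 change of 0.29, with 1 member called up and 0 down.

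**Figure D3:**
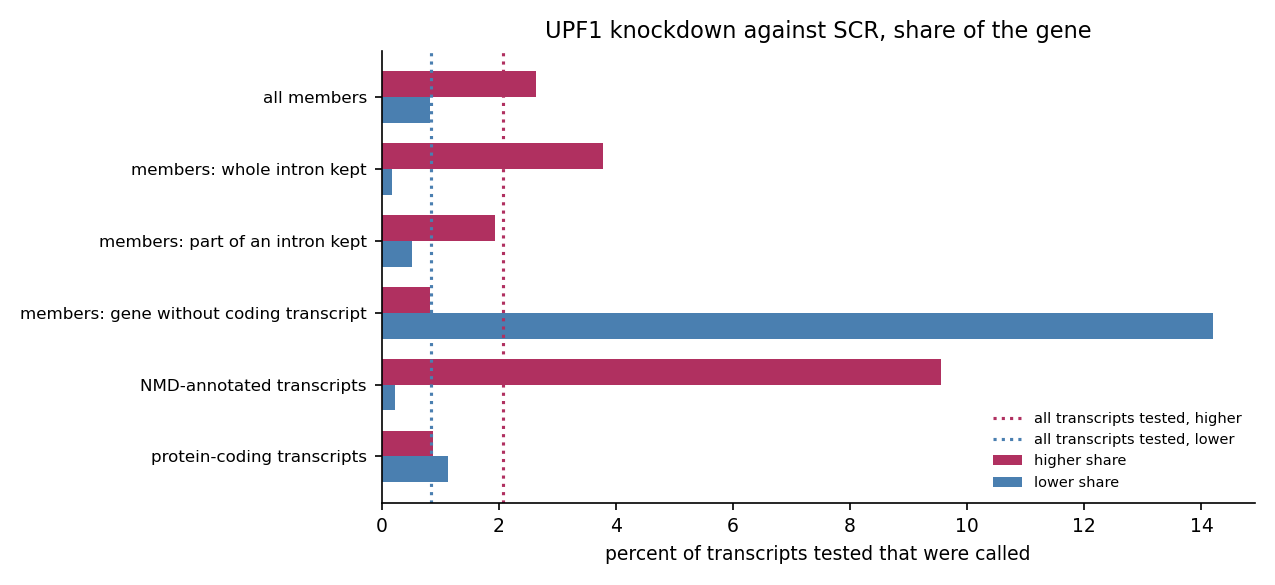
Percent of the transcripts tested that were called up (red bars) and down (blue bars) in the share test of UPF1-kd against SCR, for all members, for members by what they keep, and for transcripts annotated as NMD substrates or protein-coding, with dotted lines at the percent of all transcripts. Of all members 2.63% were called up and 0.836% down, beside 2.07% and 0.841% of all transcripts.

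By length and by share of the gene the calls were uneven. In the same test 12 of 434 members up to 500 bases rose (2.76%), 49 of 2287 from 501 to 1000 bases (2.14%), 23 of 758 from 1001 to 2000 bases (3.03%) and 23 of 589 over 2000 bases (3.9%). Transcripts of all types in those length classes were called up in 2.21%, 3.19%, 2.44% and 1.01%, so the members' percentage was above that of their length class over 2000 bases and below it from 501 to 1000 bases, differences that were not tested. By share of gene, 55 of 1182 members under 2% rose and 12 fell, with a median of 0.29. From 2% to 10% the counts were 42 and 13 of 1738 with a median of 0.14, from 10% to 50% they were 10 and 9 of 1069 with a median of -0.02, and of 79 members at 50% or more none was called. The ratio to the rest of the gene moves with this share by construction, and the share bands were set from the same libraries.

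The clearest rise was in RPS12, which encodes a protein of the small ribosomal subunit. Its isoform ENST00000484616 (chr6:132814569-132817564, plus strand, part of an intron) had 37.3, 43 and 44.5 TPM in SCR, 37.5, 38.5 and 41.1 TPM in DHX34-kd and 215, 214 and 219 TPM in UPF1-kd. It went from 1.22% to 1.39% of the gene in SCR to 6.56% to 6.85% in UPF1-kd, while DHX34-kd stayed at 1.36% to 1.5%. The log2 change in ratio against SCR was 2.42 (SE 0.085, limma adjusted p = 0.000384), and in level 2.13 (SE 0.069, edgeR adjusted p = 0.000165). Both calls held in 6 of 6.

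EEF1A1, the elongation factor that delivers aminoacyl-tRNA to the ribosome, had a member with a large rise in share. ENST00000488500 keeps the 83-base intron 4 shown above and had 81.7, 215 and 87.8 TPM in SCR, 500.0, 570.0 and 512 TPM in DHX34-kd and 618, 703 and 691 TPM in UPF1-kd. All 6 knockdown libraries were above the highest SCR library, which itself stood apart from the other SCR libraries. In UPF1-kd the log2 change in ratio was 2.58 (SE 0.394, limma adjusted p = 0.0369), and in DHX34-kd it was 2.33 (SE 0.395) and missed the threshold (limma adjusted p = 0.168). The UPF1-kd call held in 1 of 6, the fit without SCR replicate 2.

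NOB1, the endonuclease that matures the 3′ end of 18S rRNA, behaved differently. ENST00000562416, which keeps the 121-base intron 1, had 2.51, 3.05 and 4.01 TPM in SCR, 3.8, 4.24 and 4.65 TPM in DHX34-kd and 15.9, 14.8 and 15.8 TPM in UPF1-kd. Only UPF1-kd was clear of the others, and the log2 change in ratio against SCR was 1.95 (SE 0.201, limma adjusted p = 0.0132), a call that held in 3 of 6 and was lost without any UPF1-kd library. PTBP1, a repressor of alternative exons, showed the same order: ENST00000590887, which keeps the 83-base intron 4, had 4.44, 5.26 and 7.17 TPM in SCR, 4.29, 8.58 and 6.85 TPM in DHX34-kd and 21.2, 17.6 and 19.6 TPM in UPF1-kd. Its log2 change in ratio was 1.64 (SE 0.195, limma adjusted p = 0.0203) in UPF1-kd, holding in 1 of 6, and 0.14 (SE 0.308) in DHX34-kd.

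DCXR, an enzyme of carbonyl and xylulose reduction, had a member with the 83-base intron 1 (ENST00000578273) at 4.06, 3.87 and 4.16 TPM in SCR, 3.71, 4.02 and 3.38 TPM in DHX34-kd and 11.9, 12 and 9.96 TPM in UPF1-kd. This was 1.58% to 1.87% of the gene in SCR and 4.02% to 4.68% in UPF1-kd. In the frame of the coding transcript the kept intron carries a stop with a junction downstream. The log2 change in ratio was 1.41 (SE 0.128, limma adjusted p = 0.00915).

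RPL13 ENST00000491523, which keeps intron 2, moved apart in the knockdowns. It had 32.4, 31.2 and 31.8 TPM in SCR, 21.1, 20.7 and 21.2 TPM in DHX34-kd and 60.3, 55.4 and 56.8 TPM in UPF1-kd, with no overlap between any groups. The rise against SCR was 1.08 in log2 ratio in UPF1-kd (SE 0.069, limma adjusted p = 0.00305), whereas the change of -0.42 in DHX34-kd (SE 0.084) was not called (limma adjusted p = 0.225). The dominant RPL13 isoform given above made up 46.2% to 46.7% of the gene in UPF1-kd and 46.8% to 47.5% in SCR.

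Further members were named for a rise in UPF1-kd. RPL19 ENST00000585199, with intron 3 of that ribosomal protein gene, had 2.14, 2.75 and 1.46 TPM in SCR, 5.48, 9.04 and 5.87 TPM in DHX34-kd and 8.54, 5.78 and 8.19 TPM in UPF1-kd, and its log2 ratio rose by 1.88 in UPF1-kd (SE 0.269, limma adjusted p = 0.0313). PIH1D1, a subunit of the R2TP co-chaperone, had ENST00000593900 at 3.2, 4.34 and 3.42 TPM in SCR and 12, 10.7 and 12.1 TPM in UPF1-kd, and GTSF1, a small zinc finger protein of the piRNA pathway, had ENST00000546575 at 3.37, 5.11 and 3.81 TPM in SCR and 11.8, 10.4 and 14.2 TPM in UPF1-kd. For both, DHX34-kd spanned or overlapped SCR. GFUS, the GDP-L-fucose synthase, had ENST00000532308 at 7.05, 6.76 and 5.49 TPM in SCR and 21.2, 17.5 and 18.3 TPM in UPF1-kd. The share calls held in 1 of 6 for RPL19 and GTSF1, in 2 of 6 for PIH1D1 and in 3 of 6 for GFUS. In TBRG1 ENST00000473629 and RHBDD3 ENST00000493894, the level rose by 1.32 and 1.13 on the log2 scale in UPF1-kd (edgeR adjusted p = 0.00123 and 0.00336) and the share was not called by limma (log2 ratio -0.01, SE 0.205, and 0.24, SE 0.151). C8orf33 had members ENST00000524395 and ENST00000530455 that keep the same 88-base intron, and both rose in level, by 1.47 and 1.12. Of these 4 level calls, TBRG1 held in 0 of 6 and RHBDD3 and C8orf33 ENST00000524395 in 1 of 6, the fit without SCR replicate 2. For C8orf33 ENST00000530455 the number was not counted against SCR, and its level call against DHX34-kd held in 6 of 6.

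**Figure D4:**
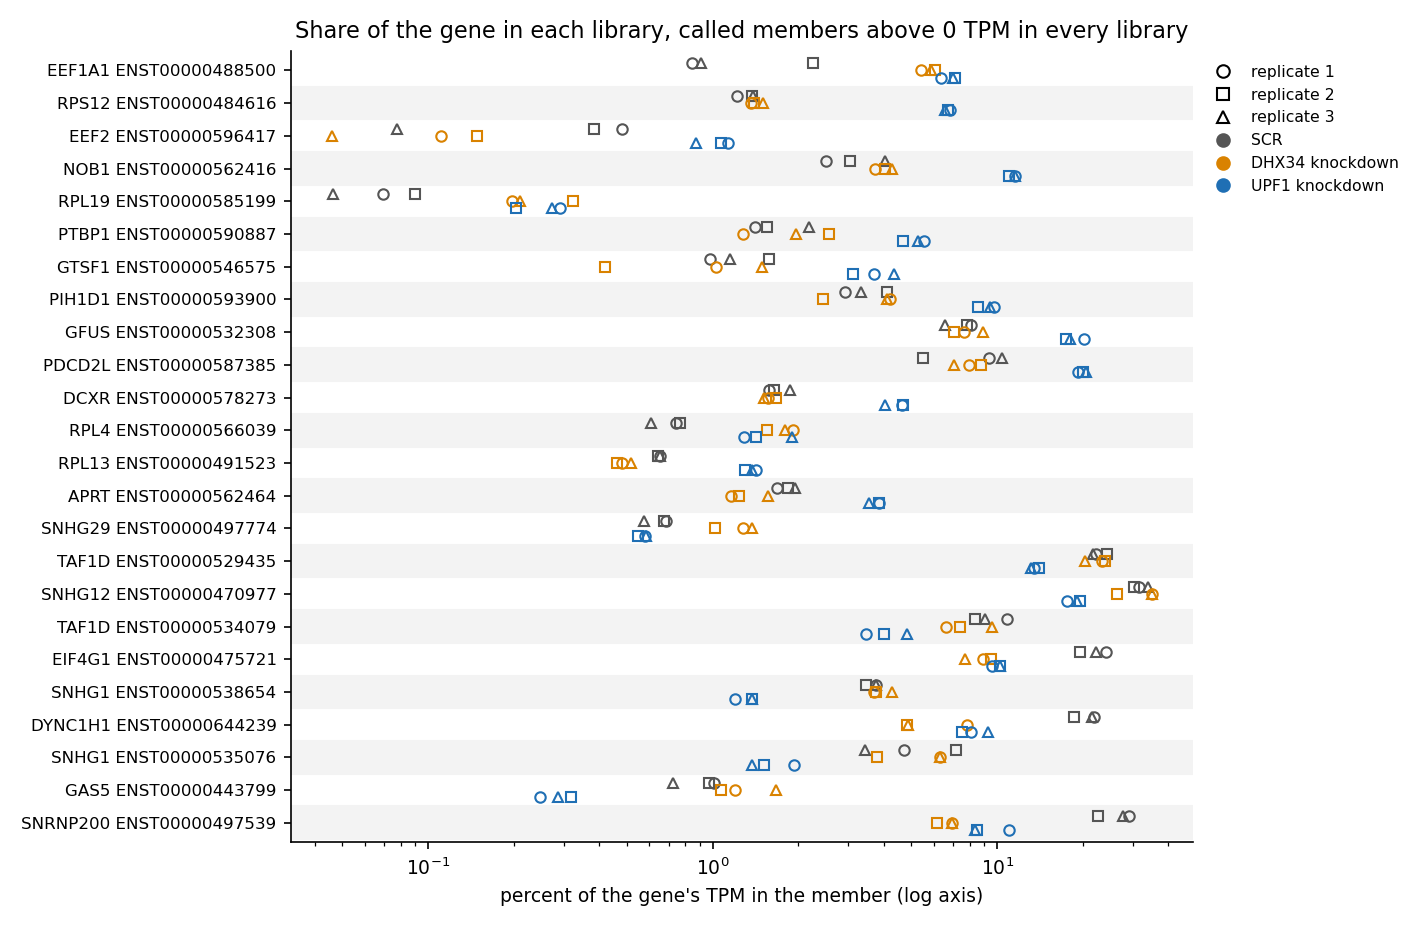
Percent of the gene's TPM (log axis) for the members named for the size of a called share change and above 0 in every library, with 1 point per library in the 3 groups, ordered by the UPF1-kd change. RPS12 ENST00000484616 sits at 1.22% to 1.5% in SCR and DHX34-kd and at 6.56% to 6.85% in UPF1-kd.

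Several isoforms that contain part of an intron were lower in both knockdowns than in SCR. HDLBP encodes the RNA-binding protein vigilin, and its ENST00000494862 (chr2:241229483-241229983, minus strand) had 17.9, 15.4 and 16.4 TPM in SCR and 0 TPM in all 6 knockdown libraries. At 3 counts per library this was at least 44.3-fold lower in DHX34-kd and at least 47.8-fold lower in UPF1-kd. It passed the filters through the SCR libraries alone, and its fitted ratio depends on the pseudocount. SNRNP200 encodes the U5 snRNP helicase that unwinds U4/U6, and its ENST00000497539 had 26.8, 22 and 26.0 TPM in SCR, 6.64, 5.9 and 7.4 TPM in DHX34-kd and 11.3, 8.59 and 8.3 TPM in UPF1-kd. It was the single member called by edgeR in DHX34-kd, with a log2 change in level of -2.07 (SE 0.115, edgeR adjusted p = 0.00415) and in ratio of -2.31 (SE 0.176, limma adjusted p = 0.00989). The level call held in 0 of 6 and the share call in 6 of 6, and the share call in UPF1-kd (-1.81, SE 0.203, limma adjusted p = 0.0176) in 2 of 6.

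EIF4G1, the scaffold of the cap-binding complex, had ENST00000475721 at 49.7, 42.8 and 47.0 TPM in SCR, 18.5, 19.4 and 17.3 TPM in DHX34-kd and 18.5, 20.6 and 19.9 TPM in UPF1-kd. The log2 ratio fell by 1.56 in DHX34-kd (limma adjusted p = 0.036) and by 1.33 in UPF1-kd (limma adjusted p = 0.0133), calls that held in 0 of 6 and 3 of 6. DYNC1H1, the dynein heavy chain, had ENST00000644239 at 12.6, 11.3 and 12.5 TPM in SCR, 4.69, 2.97 and 3.39 TPM in DHX34-kd and 5.13, 4.01 and 5.02 TPM in UPF1-kd, a fall called in UPF1-kd (log2 ratio -1.51, SE 0.159, limma adjusted p = 0.014) and not in DHX34-kd (-2.08, SE 0.248, limma adjusted p = 0.0591). The DYNC1H1 call held in 2 of 6. Both comparisons share the same 3 SCR libraries, so the values are set side by side without a count of shared calls.

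Further falls in level in UPF1-kd concerned chaperone, kinase and receptor genes. BAG6, a chaperone of tail-anchored proteins, had ENST00000441793, which keeps intron 16, at 56.2, 56.9 and 52.3 TPM in SCR, 38.4, 32.3 and 31.4 TPM in DHX34-kd and 36.8, 30.6 and 34.8 TPM in UPF1-kd. It was called in UPF1-kd by edgeR (log2 level -0.95, adjusted p = 0.00181) and by limma (log2 ratio -0.89, adjusted p = 0.0297), and not in DHX34-kd. HSPA4, an Hsp70-type chaperone, PRKD2, a protein kinase D, and CR1L, a complement receptor 1-like gene, had members with log2 level changes in UPF1-kd of -0.95, -0.69 and -0.67 (edgeR adjusted p = 0.0031, 0.00392 and 0.00381) and no share call. The 4 level calls held in 0 of 6. ENST00000531844 was nearly all of CR1L, at 87.7% to 97.0% of the gene in every library.

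Of the 34 falls in share in UPF1-kd, 10 were isoforms of GAS5, 3 of SNHG1, 2 of SNHG12 and 2 of TAF1D, genes that host snoRNAs in their introns, and each of the others came from a separate gene. GAS5 ENST00000443799 had 7.37, 7.23 and 5.15 TPM in SCR, 6.45, 5.74 and 8.97 TPM in DHX34-kd and 5.84, 7.16 and 7.18 TPM in UPF1-kd, so its level hardly moved. The gene as a whole went from a mean of 729 TPM in SCR to 537 TPM in DHX34-kd and 2379 TPM in UPF1-kd, and the member's share went from 0.727% to 1.01% down to 0.247% to 0.318% (log2 ratio -1.67, SE 0.169, limma adjusted p = 0.0125), which held in 4 of 6.

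SNHG1 ENST00000538654 likewise had 8.78, 7.51 and 7.71 TPM in SCR and 8.29, 9.17 and 9.82 TPM in UPF1-kd, beside a gene total of 219 TPM in SCR and 691 TPM in UPF1-kd (log2 ratio -1.51, SE 0.108, limma adjusted p = 0.0044), which held in 6 of 6. In SNHG12 the gene total went from 34.9 to 88.5 TPM and ENST00000470977 from 30.2% to 33.9% of it to 17.6% to 19.6%. TAF1D, which encodes a subunit of the RNA polymerase I selectivity factor, went from 88.6 to 154 TPM, and its member ENST00000534079 from 8.38% to 10.8% down to 3.46% to 4.83%. The calls for these 2 members held in 0 of 6. In these GAS5 and SNHG1 isoforms the level in UPF1-kd lay within or near the SCR range, which was not so for every called GAS5 isoform. GAS5 ENST00000456812 had 13.3, 16.6 and 12.4 TPM in SCR, 9.16, 10.8 and 11.2 TPM in DHX34-kd and 27.8, 24.1 and 28.1 TPM in UPF1-kd (edgeR adjusted p = 0.00299 against DHX34-kd, held in 0 of 6), and it too lost share against DHX34-kd (log2 ratio -0.81, SE 0.116, limma adjusted p = 0.0402).

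In DHX34-kd against SCR few members passed a threshold. edgeR called 1 member down and none up, where 0.0341% of all transcripts were called up and 0.013% down. At an unadjusted p under 0.05 there were 241 members up and 211 down of 4000, where 7.46% of all transcripts were up and 7.81% down. DESeq2 called 49 members up and 69 down, where 2.3% and 2.76% of all transcripts were called. The limma share test called 13 members up and 10 down, where 0.32% of all transcripts were called, 0.2% up and 0.12% down. In 12 of the 13 rises and 7 of the 10 falls a group was at 0 in all 3 libraries. Groups did not overlap for 19.1% of members and for 19.1% of all transcripts. The median log2 change in ratio was 0.116 over members and 0.016 over all transcripts, and without DHX34-kd replicate 3 it was 0.05 and 0.008. Over whole-intron members it was 0.136 with that library and 0.039 without it. The counts without it were 16 up and 11 down. Without SCR replicate 3 the median was 0.076 over members, 0.008 over all transcripts and 0.087 over whole-intron members. The higher median of the members was thus smaller in the fits that left out DHX34-kd replicate 3 or SCR replicate 3.

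The members called in DHX34-kd were mostly switches between 0 and a few TPM. CNOT1, the scaffold of the CCR4-NOT deadenylase, had ENST00000569924 at 16.1, 9.33 and 12 TPM in SCR, 0 TPM in the 3 DHX34-kd libraries and 6.66, 5.88 and 4.0 TPM in UPF1-kd, at least 76.3-fold lower in DHX34-kd than in SCR. AHSA1, an activator of the Hsp90 ATPase, had ENST00000556866 at 0 TPM in SCR, 13.1, 10.8 and 8.31 TPM in DHX34-kd and 0, 10.5 and 9.64 TPM in UPF1-kd, at least 49.2-fold higher in DHX34-kd. Only 0.926% of that isoform lies outside coding exons. Both members passed the filters through the groups where they are above 0, and their fitted ratios depend on the pseudocount. U2SURP, a protein associated with the U2 snRNP, and BUB1, the spindle checkpoint kinase, were called too and were picked out after their values were seen. U2SURP ENST00000470400 was at 0 TPM in SCR, at 8.75, 6.95 and 7.75 TPM in DHX34-kd and at 6.24, 7.58 and 5.44 TPM in UPF1-kd. BUB1 ENST00000466333 was at 0 TPM in SCR, at 3.86, 6.96 and 5.82 TPM in DHX34-kd and at 0, 5.02 and 4.68 TPM in UPF1-kd. The same limits of filter and pseudocount apply to the U2SURP and BUB1 members.

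The rise in DHX34-kd that did not start from 0 was in RPL4, a protein of the large ribosomal subunit. ENST00000566039 had 29.0, 30.5 and 24.5 TPM in SCR, 70, 57.3 and 65.8 TPM in DHX34-kd and 49.1, 52.8 and 74.0 TPM in UPF1-kd. Both knockdowns lay above SCR, and the log2 ratio rose by 1.32 in DHX34-kd (SE 0.14, limma adjusted p = 0.0378) and by 1.12 in UPF1-kd (SE 0.181, limma adjusted p = 0.0428). The DHX34-kd call held in 0 of 6. The 269-base stretch it keeps is spliced out in only 11.1% of the coding TPM of RPL4.

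The direct comparison of UPF1-kd with DHX34-kd called 49 members up and 29 down by share, or 1.2% and 0.713%, where 1.66% of all transcripts were called, 1.24% up and 0.426% down, and between 22 and 63 members without 1 library. By level edgeR called 17 up and 3 down, where 0.731% and 0.324% of all transcripts were called, and between 3 and 8 members without 1 library. The median log2 change in ratio was 0.005 over members and 0.015 over all transcripts, and without DHX34-kd replicate 3 it was 0.076 and 0.023. Among whole-intron members it was 0.047 with that library and 0.147 without it.

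RPS12 ENST00000484616 (log2 ratio 2.32, SE 0.084, limma adjusted p = 0.000617), NOB1 ENST00000562416 (1.6, SE 0.119, adjusted p = 0.00663), DCXR ENST00000578273 (1.5, SE 0.121, adjusted p = 0.00784) and RPL13 ENST00000491523 (1.5, SE 0.089, adjusted p = 0.00329) were higher in UPF1-kd than in DHX34-kd. APRT, the adenine salvage enzyme, had ENST00000562464, which keeps intron 1, at 7.23, 7.71 and 8.01 TPM in SCR, 5.06, 5.36 and 6.54 TPM in DHX34-kd and 16.5, 16.7 and 14.7 TPM in UPF1-kd. Its 3 groups did not overlap, and the knockdowns lay on opposite sides of SCR. The fall in DHX34-kd against SCR was not called (edgeR adjusted p = 0.209 for level, limma adjusted p = 0.388 for share). PDCD2L ENST00000587385 had 3.73, 4.1 and 3.05 TPM in DHX34-kd and 9.57, 9.77 and 10.4 TPM in UPF1-kd, and EEF2, the translocation factor of elongation, had ENST00000596417 at 1.55, 2.11 and 0.647 TPM in DHX34-kd and 17.7, 17.0 and 13.7 TPM in UPF1-kd, with a wide spread in SCR (6.78, 5.66 and 1.15 TPM). For CNOT1 the level in UPF1-kd was at least 33.7-fold above that in DHX34-kd. The share calls of RPS12, NOB1 and RPL13 held in 6 of 6, that of DCXR in 5 of 6, that of APRT in 3 of 6 and those of PDCD2L and EEF2 in 2 of 6.

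Falls in the direct comparison again fell on snoRNA hosts, with SNHG29 ENST00000497774 at 1.02% to 1.37% of its gene in DHX34-kd and 0.548% to 0.583% in UPF1-kd (held in 1 of 6). By level, ARPC1B, a subunit of the Arp2/3 complex, had ENST00000484600 at 109, 132 and 131 TPM in SCR, 170.0, 164 and 170.0 TPM in DHX34-kd and 119, 125 and 126 TPM in UPF1-kd. It was lower in UPF1-kd than in DHX34-kd by 0.46 on the log2 scale (edgeR adjusted p = 0.0036, held in 0 of 6), and its share of the gene was not called by limma (log2 ratio 0.06, SE 0.117).

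The members were also grouped by the function of their genes in 17 lists. In UPF1-kd against SCR the ribosomal protein genes had the most rises in share, 16 up and 1 down of 163 members with a median log2 ratio change of 0.35, against 0.041 for all transcripts, of which 2.07% were called up and 0.841% down. That background applies to each list below in this comparison. Their members were rare isoforms with a median of 0.138% of the gene. Examples beside RPS12 and RPL13 are RPL28 ENST00000560881, with intron 3, which had 3.61, 4.03 and 4.57 TPM in SCR, 5.12, 4.98 and 6.84 TPM in DHX34-kd and 9.01, 9.37 and 8.12 TPM in UPF1-kd (log2 ratio 1.28, SE 0.092, limma adjusted p = 0.00439), and RPL10 ENST00000485196 (log2 ratio 0.73, SE 0.1, limma adjusted p = 0.0294). These 2 and the other list members in the next paragraphs were picked out after the values were seen. In level, the summed TPM of the 163 members was 13563 in SCR, 12117 in DHX34-kd and 12772 in UPF1-kd, carried by the abundant isoforms, so the list's total and its median share moved in opposite directions. In UPF1-kd edgeR called 2 of them up and 6 down. In DHX34-kd the median share change was 0.20, or 0.07 without replicate 3.

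Mitochondrial protein genes had 10 rises and no falls among 168 members (median 0.28), for example in MRPS34, of the small mitochondrial ribosomal subunit, where ENST00000569585 had 52.8, 44.1 and 45.2 TPM in SCR and 79.7, 87.8 and 82.8 TPM in UPF1-kd. Translation factors and tRNA synthetases had 3 rises, in EEF1A1, EIF3K and EIF3F, and 1 fall, in EIF4G1, of 117 members (median 0.2). EIF3K ENST00000588422 had 18.3, 18 and 17.8 TPM in SCR, 16.2, 18.9 and 17.5 TPM in DHX34-kd and 40, 36.5 and 43.3 TPM in UPF1-kd. Proteasome and ubiquitin genes had 4 rises of 68 (median 0.18). The levels in DHX34-kd overlapped with SCR for the MRPS34 and EIF3K members. Among the rises of these lists, COX4I1 ENST00000566617 and FBXW5 ENST00000480818 were at 0 TPM in SCR. They passed the filters through the knockdown libraries, and their fitted ratios depend on the pseudocount.

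Among genes of the splicing machinery, hnRNP and other RNA-binding protein genes had 4 rises and no falls of 71 members (median 0.25), in PTBP1, HNRNPH1, HNRNPL and PCBP2. HNRNPH1 ENST00000514731, with intron 10, was at 0 TPM in the SCR and DHX34-kd libraries. In UPF1-kd it had 5.45, 5.04 and 3.76 TPM, at least 133-fold above SCR. It passed the filters through the UPF1-kd libraries alone, and its fitted ratio depends on the pseudocount. Core spliceosome genes had 4 rises, in DDX39B, U2SURP, PHF5A and CWC15, and the fall in SNRNP200, of 67 members (median 0.15). The U2SURP member, at 0 TPM in SCR, passed the filters through the knockdown libraries, and its fitted ratio also depends on the pseudocount. DDX39B, a helicase of splicing and export, had ENST00000462256, a 4027-base isoform with intron 6, at 18, 19.1 and 15.2 TPM in SCR, 20.8, 19.6 and 30.1 TPM in DHX34-kd and 41.5, 42.9 and 44.2 TPM in UPF1-kd (log2 ratio 1.15, SE 0.121, limma adjusted p = 0.0144). SR protein genes had 2 rises, in TRA2B and SRSF3, and no falls of 61 (median 0.13). SRSF3 ENST00000620389 had 19.4, 20.4 and 20.6 TPM in SCR, 23.0, 23.9 and 30 TPM in DHX34-kd and 31.5, 31.3 and 30.9 TPM in UPF1-kd. None of the 11 members of splicing kinase genes and none of the 16 members of NMD and exon junction complex genes was called in any share test. Of all transcripts 0.32% were called in DHX34-kd against SCR, 2.91% in UPF1-kd against SCR and 1.66% in the direct comparison. At such rates lists of this size can be without a call.

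The list of ribosome biogenesis genes and snoRNA hosts had 1 rise and 18 falls of 102 members (median -0.1), and 1 rise and 18 falls with a median of -0.41 against DHX34-kd. In UPF1-kd against SCR all 18 falls were isoforms of the snoRNA hosts GAS5 (10), SNHG1 (3), SNHG12 (2), TAF1D (2) and SNHG17 (1), and the rise was in RIOK3, a kinase of ribosome maturation. The RIOK3 member, at 0 TPM in SCR, passed the filters through the knockdown libraries, and its fitted ratio depends on the pseudocount. In DHX34-kd against SCR the median of the list was 0.27, or 0.23 without replicate 3. Of the remaining lists in UPF1-kd, cell cycle (78 members, median 0.21), erythroid and iron genes (45 members, 0.23) and RNA decay genes (50 members, 0.19) each had 1 rise and no falls. Transcription and chromatin genes had 2 rises and 2 falls of 114 (0.04). Zinc finger genes, whose 46 members made up a median of 12% of their gene, had none called (-0.06), nor had the 28 members of leukaemia genes (-0.07).

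In DHX34-kd the list medians depended on replicate 3. Without it the median log2 ratio change went from 0.21 to 0.04 for SR proteins, from 0.22 to 0.14 for hnRNP genes, from 0.16 to 0.08 for mitochondrial proteins, from 0.04 to -0.06 for proteasome genes, from 0.01 to -0.24 for leukaemia genes and from -0.03 to -0.19 for splicing kinases. No list had more than 2 members called in either direction in that comparison, with or without the library.

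**Figure D5:**
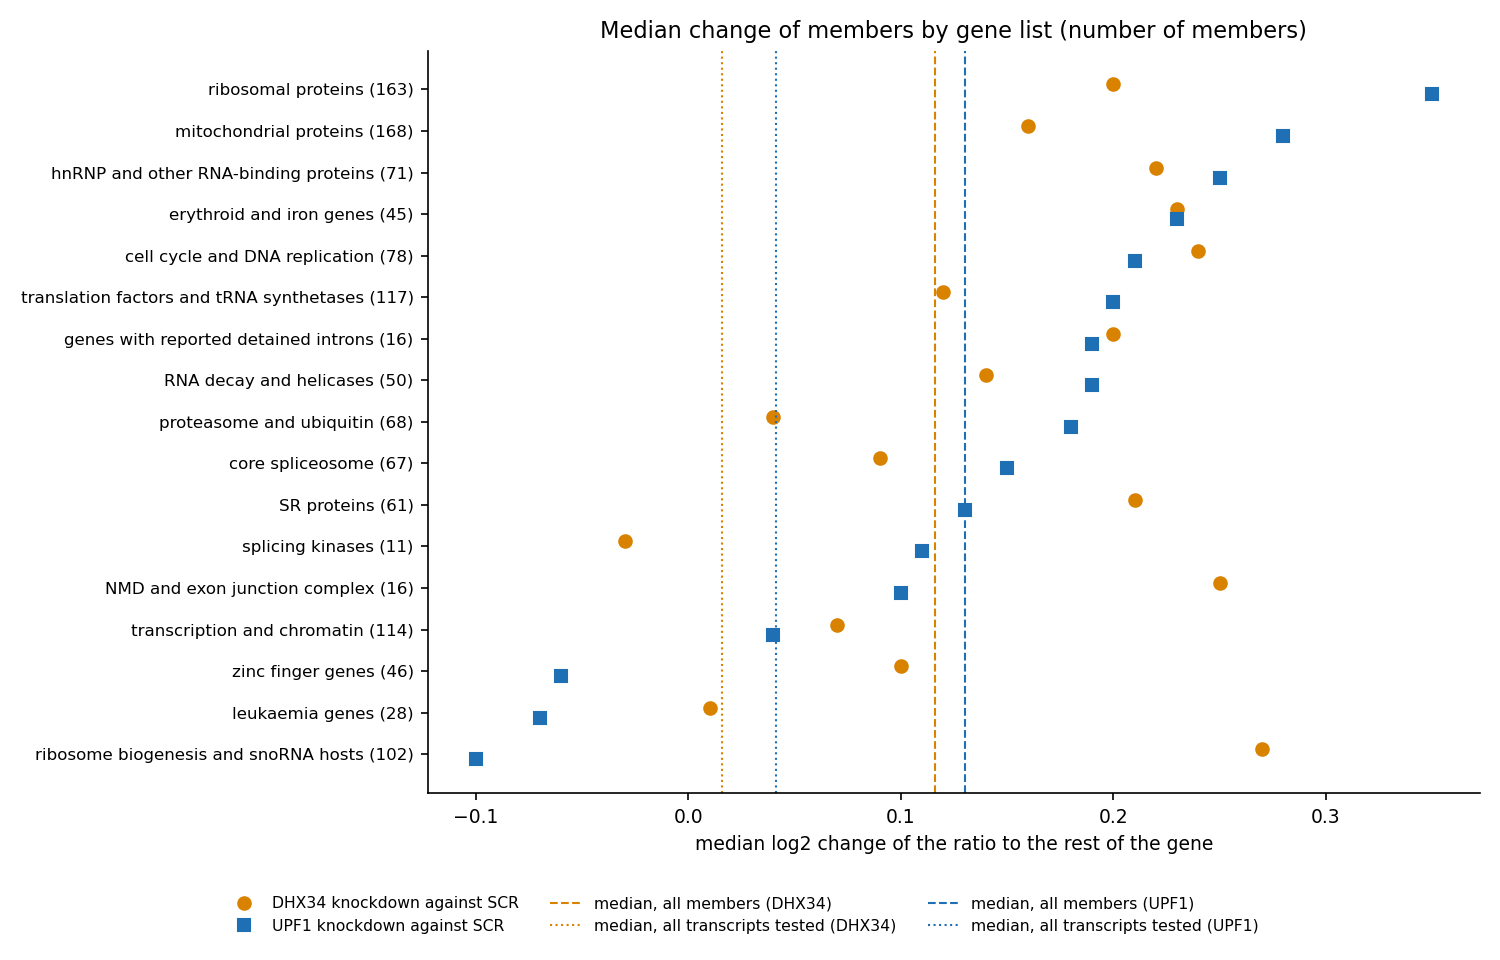
Median log2 change in the ratio to the rest of the gene for the members of each gene list, in DHX34-kd and UPF1-kd against the same SCR libraries, with the number of members beside each list and lines at the median of all members (dashed) and of all transcripts tested (dotted). In UPF1-kd ribosomal proteins have the highest median (0.35) and ribosome biogenesis genes and snoRNA hosts the lowest (-0.1).

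Detained introns, which stay in polyadenylated RNA inside the nucleus, have been reported in several of the member genes, and 16 members came from 9 of the 13 such genes listed. DDX5, an RNA helicase of transcription and splicing, had ENST00000581230, a 3558-base isoform with the 1236-base intron 11, at 11.2, 11.8 and 9.0 TPM in SCR, 15.3, 13.2 and 22.7 TPM in DHX34-kd and 20.7, 18.9 and 18.9 TPM in UPF1-kd. It was the single call of the list in UPF1-kd (log2 ratio 0.89, SE 0.13, limma adjusted p = 0.0335). The change in DHX34-kd was 0.53 (SE 0.209, limma adjusted p = 0.447).

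OGT, the O-GlcNAc transferase, had ENST00000488174 with intron 4 at 4.65, 5.73 and 3.69 TPM in SCR, 5.04, 4.76 and 8.73 TPM in DHX34-kd and 6.05, 6.24 and 6.2 TPM in UPF1-kd. DDX17, the paralogue of DDX5, had ENST00000216019 at 4.17, 4.85 and 3.29 TPM in SCR, 4.65, 4.16 and 8.12 TPM in DHX34-kd and 5.92, 5.67 and 5.96 TPM in UPF1-kd. In both genes DHX34-kd replicate 3 was the highest of all libraries and the other DHX34-kd libraries lay within the SCR range. The log2 ratio changes in UPF1-kd were -0.07 (SE 0.147) for OGT and 0.05 (SE 0.149) for DDX17, and neither was called.

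The SR protein gene SRSF5 had ENST00000556184 with intron 5 at 5.23, 6.82 and 4.67 TPM in SCR, 7.16, 7.27 and 9.78 TPM in DHX34-kd and 8.64, 8.47 and 8.16 TPM in UPF1-kd, without a call (UPF1-kd log2 ratio 0.47, SE 0.187, limma adjusted p = 0.254). The mitochondrial iron importer SLC25A37 had the isoform with the highest share, ENST00000518881, at 32.2% to 34.1% of the gene in SCR, 32.7% to 35.1% in DHX34-kd and 28.2% to 32.9% in UPF1-kd. MAT2A, the S-adenosylmethionine synthetase, had 3 members with different kept introns, and their log2 ratio changes in UPF1-kd were between -0.11 and 0.34. No other member of these genes passed a threshold in either test.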

How the data were processed

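Per the labels, RNA from siRNA-treated K562 cells was sequenced as polyadenylated RNA, a step that the study's methods do not name. Per those methods, the authors quantified transcripts with salmon (GC bias correction) against Ensembl cDNAs on GRCh38. The deposited tables, 1 per library, give an expected count, which is an estimated and fractional read number, and a TPM value for each transcript, normalized by the authors for length and depth. The tables of the authors' sleuth and SUPPA2 comparisons hold their own fold changes, p-values and splicing differences and were not used.

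Transcript types, genes and exons came from GENCODE release 44 (GRCh38), which matched 97.9% of transcripts and 98.1% of counts, and 93.1% of members had the same length there as in the tables. Library totals ranged from 73478797 to 103625443 expected counts, so depth limits mainly the members near 1 TPM, and floors of 3 counts cover counting error only. Levels were tested on rounded expected counts with edgeR 4.0.16 (TMM, filterByExpr with a minimum of 10, quasi-likelihood F test, Benjamini-Hochberg). Shares were tested with limma 3.58.1 on log2((TPM + 0.1)/(rest of gene + 0.1)) for transcripts and rests with a mean of at least 0.5 TPM. Each of the 3 comparisons used its 6 libraries, and p-values were adjusted over all transcripts tested. Median changes over all genes' transcripts in level were 0.03, 0.06 and 0.02 by edgeR and 0.12, 0.18 and 0.05 on log2(TPM + 0.5) for DHX34-kd against SCR, UPF1-kd against SCR and UPF1-kd against DHX34-kd. Alternatives were DESeq2 1.42.0, other scalings, filters and pseudocounts, all 9 libraries in 1 fit, a replicate block and leaving out each library.

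On data simulated for UPF1-kd against SCR, in which only members were changed, the edgeR fit recovered 16% of transcripts changed 4-fold and 45% of those changed 16-fold, with 2 false calls among 59547. The limma fit recovered 19.6% and 76.6% with 8 false calls among 40428, where calls in genes with a changed transcript were not counted as false. Counts were drawn separately for each transcript, so the division of reads among isoforms was not simulated and the false calls may be too few.

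The members and gene lists were chosen with earlier results of these data known. Named members are the 10 with the highest mean TPM, the 5 on either side of 1 TPM, up to 8 rises and 8 falls per comparison and test (1 per gene) among called members averaging 5 TPM or more whose groups do not overlap, up to 4 of highest mean TPM per list, and those of the targeted genes and of genes with reported detained introns, beside those said to be picked out later. Python 3.11.15, pysam 0.24.0 and R 4.3.3 were used.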

Additional observations from a re-analysis of the deposited data

Results flagged for a closer look

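The share of the gene held by 12 members differed between the knockdowns when UPF1-kd was tested against DHX34-kd directly with limma (log2 change in the ratio to the rest of the gene, 3 libraries a group). It was higher in UPF1-kd for members of CNOT1 (5.82, a fitted value that depends on the pseudocount since DHX34-kd was at 0), EEF2 (3.38), RPS12 (2.32), NOB1 (1.6), APRT (1.53), PDCD2L (1.51), DCXR (1.5) and RPL13 (1.5). It was lower in UPF1-kd for members of GAS5 (-2.21), SNHG1 (ENST00000535076, -1.8), SNHG29 (-1.1) and TAF1D (ENST00000529435, -0.89). With 1 library left out these calls held in 3 of 6 fits for GAS5, in 1 of 6 for SNHG1 and SNHG29 and in 0 of 6 for TAF1D. For APRT and RPL13 the level in DHX34-kd lay below SCR in every library and in UPF1-kd above it. Neither fall in DHX34-kd was called, and in DHX34-kd against SCR levels did not overlap for 24.8% of members and 27.1% of all transcripts. For GAS5, SNHG1, SNHG29 and TAF1D the total of the gene was higher in UPF1-kd than in DHX34-kd.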

How the results depend on the processing

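Counts of called members varied with the method. Most counts below are given without the percent of all transcripts called, so they describe the methods and are not a result about the members. For level in DHX34-kd against SCR, 1 member was called by edgeR, 0 with RLE size factors, 118 with DESeq2, 7 without the filter on low counts, 21 and 20 with limma on log2(TPM + 0.5) and log2(TPM + 1), 22 with all 9 libraries in 1 fit, 70 at an adjusted p of at most 0.05 and 0 to 0 with 1 library left out. For UPF1-kd the 61 level calls became 421 with DESeq2, 114 and 112 with limma, 287 at 0.05 and 1 to 19 with 1 library left out. For the direct comparison the 20 became 186, 54 and 58, 48 with all 9 libraries, 146 at 0.05 and 3 to 8. With limma on log2(TPM + 0.5), which changes scaling and test together, the split in UPF1-kd was 100 up and 14 down, and 0 members called by edgeR had the opposite sign. For share, the 23 calls in DHX34-kd became 42 on the arcsine scale, 14 at an adjusted p of at most 0.005, 6 among members of at least 5 TPM and 25 to 33 with 1 library left out. The 141 in UPF1-kd became 59 without the level filter, 20 at 0.005, 55 at 5 TPM and 43 to 99, and the 78 of the direct comparison 30, 13, 37 and 22 to 63. The causes were not tested.

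The members' percent of TPM exceeded SCR by 0.171 points in DHX34-kd, 0.0414 by counts, 0.0485 for members of at least 5 TPM and 0.0984 to 0.208 with 1 library left out. In UPF1-kd the 0.399 points became 0.14 by counts, 0.331 without the 10 most abundant genes, 0.226 at 5 TPM, 0.507 over every annotated retained-intron transcript and 0.38 to 0.437. The median share difference in UPF1-kd, 0.556 points, became 0.0744 as a mean over members, 0.0642 at 5 TPM and 0.441 to 0.661, and that in DHX34-kd, 0.455, ranged from 0.174 to 0.644.

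The deviations of same-numbered libraries had correlations of -0.029 to 0.037, and those of different-numbered libraries -0.027 to 0.045. No pairing by number was seen. What value paired libraries would give is not known, so these correlations cannot exclude pairing. With the replicate number as a block, the level calls were 0, 0 and 0 and the share calls 0, 11 and 1 in the 3 comparisons, and the differences stayed at 0.171 and 0.399 points of TPM and 0.455 and 0.556 points of median share.

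Of 364 alternative values for named level calls, 203 held the call, 161 lost it and 0 reversed. With 1 library left out 26 of 156 level values held the call, and with the other alternatives 177 of 208. For share 231 of 374 values held the call, 143 lost it and 0 reversed. There 106 of 204 held with 1 library left out and 125 of 170 with the other alternatives. At this depth and 3 libraries a group, members near 1 TPM have wide errors, and for 419 members a library was at 0.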
